A study of Mus musculus with 3 samples.

Results

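PIWI and Argonaute proteins form one family of small-RNA-guided proteins, and the transcript models of their 7 genes in mouse testis are described here: Piwil1, Piwil2 and Piwil4 of the PIWI branch, and Eif2c1, Eif2c2, Eif2c3 and Eif2c4, the older symbols of Ago1 to Ago4, of the Argonaute branch. Members were all models of the deposited table that carried 1 of these symbols, together with the piRNA-named model that overlaps Eif2c2. They came to 15 of 50081 models, in 7 of 22428 genes with a RefSeq-derived model. A gene was taken as a symbol on 1 chromosome and strand. The members comprised 4 models of PIWI genes and 11 of Argonaute genes.

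The table belonged to a study of total RNA from testes of wild-type C57BL/6J mice, with 3 libraries and no replicates. CAGE, which reads capped 5′ ends, was run at 10.5 days post partum (dpp) and in adults, and PAS-Seq, which maps the 3′ ends of polyadenylated RNA, in adults only. The table is a single list for the series, with positions and exon lengths but no counts, so depth is unknown and neither age nor level can be compared. All differences below are therefore between models or genes, which are not replicates, and are described without a test. The sources used here do not say how far the libraries set the starts and ends. As markers of the tissue, 5 of 5 germ cell genes and 5 of 5 somatic testis genes were present under a code other than XX, as were 62.8% of all genes, so this is no measure of expression and the tissue could not be checked.

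PIWI proteins bind piRNAs, which silence transposons and cleave other RNAs in germ cells. Piwil2 (MILI) acts from fetal germ cells to spermatids, Piwil4 (MIWI2) in fetal prospermatogonia, where it directs DNA methylation of transposons, and Piwil1 (MIWI) in pachytene spermatocytes and round spermatids. Argonaute proteins bind microRNAs in most cell types and repress the messages these pair with. Eif2c2 encodes the Argonaute best known for slicing its targets, and Eif2c4 has a known role in meiotic prophase. Some piRNAs are cut from the messages of protein-coding genes, and the table names the transcripts concerned pi- followed by the gene's symbol.

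The kinds of model were told apart by their names. A RefSeq-derived model carries a RefSeq accession, and each of the 7 genes had 1. An added model is any other: 7 carried a CUFF identifier, of the form given by the Cufflinks assembler, with the gene's symbol, and 1 was pi-Eif2c2.1. Piwil2 and Piwil4 had no added model, Piwil1, Eif2c3 and Eif2c4 had 1, Eif2c1 had 2 and Eif2c2 had 3. At least 2 models were thus present for 5 of 7 genes, all 4 Argonaute genes and Piwil1, against 38.6% of all genes. Positions are in the mm9 build, counted from 1.

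**Figure D1:**
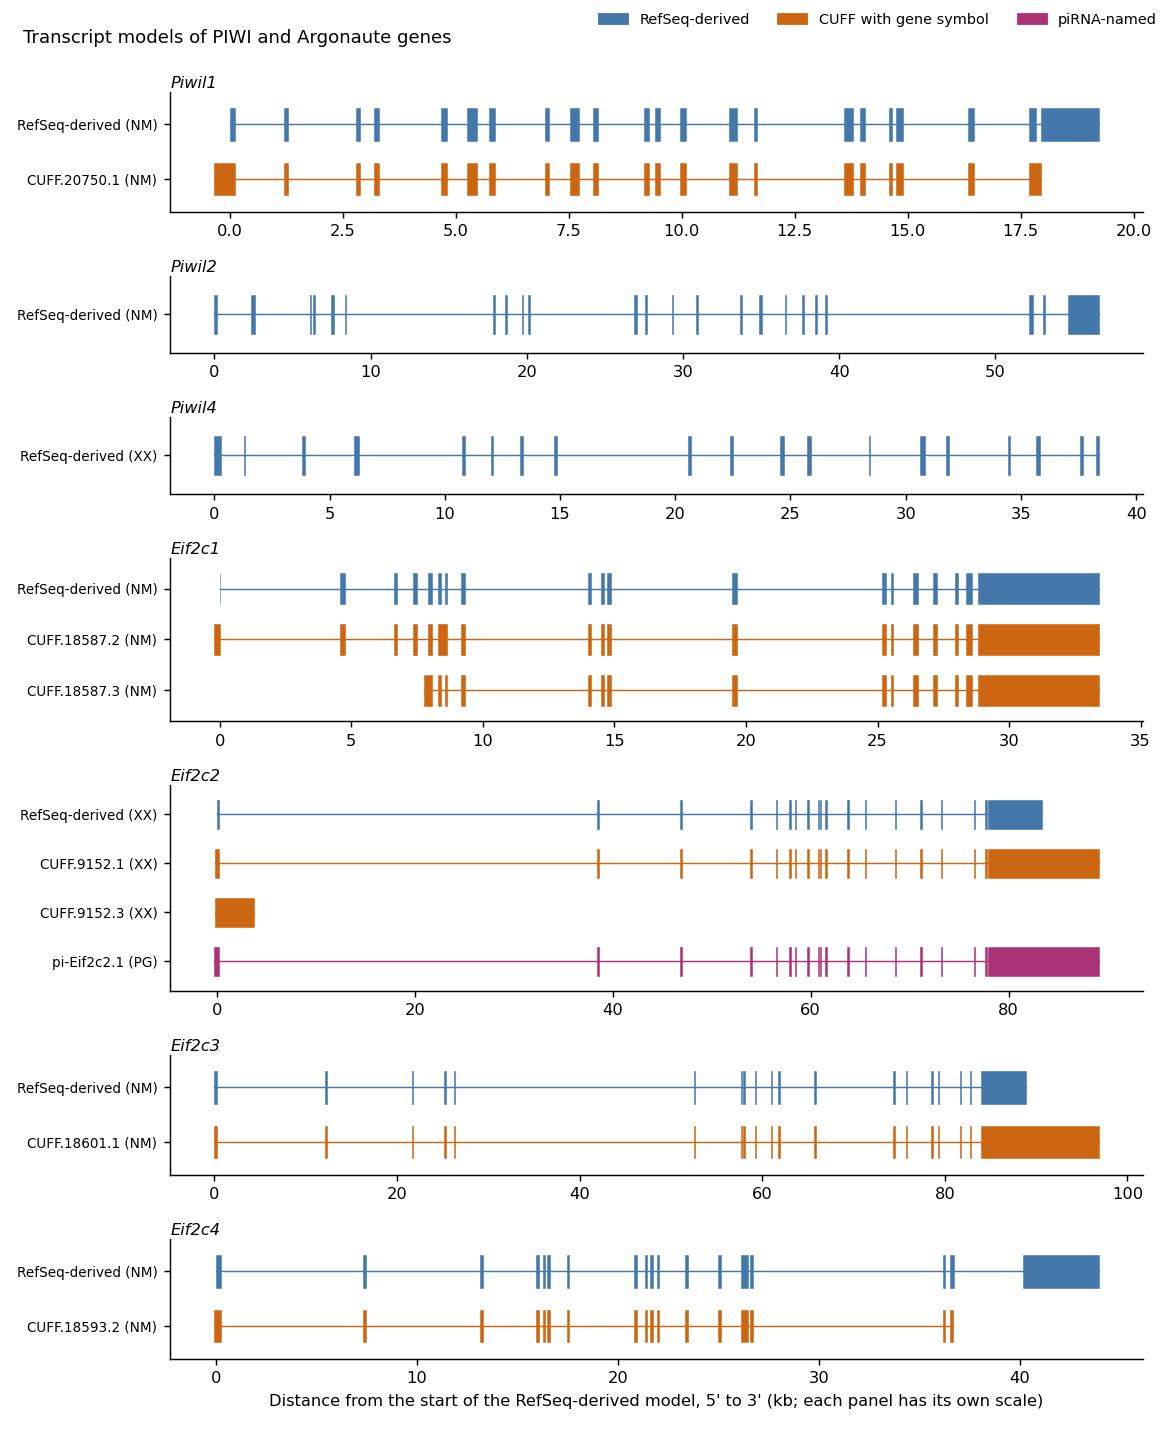
Exons (boxes) and introns (lines) of the 15 models, drawn 5′ to 3′ by distance in kb from the start of each gene's RefSeq-derived model, with the code of each model in brackets. The furthest added models of Eif2c2 and Eif2c3 end 5776 and 7994 nt past the RefSeq end, the single-exon CUFF.9152.3 of Eif2c2 stops 79572 nt before it, and the added models of Piwil1 and Eif2c4 also stop short.

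Promoter sequences are shown for a gene with an added upstream start (Piwil1), for the gene listed only under XX (Piwil4) and for an Argonaute gene that faces another start (Ago3, the table's Eif2c3). They are RefSeq windows of 300 bases, 250 before and 50 after a start, in build GRCm38.p6, and matched 5 of the 7 genes by symbol or synonym. Capitals mark the letters AACNG on either strand (CNGTT on the other), the core that MYB factors bind, since the study concerned the factor A-MYB (Mybl1). Their places are chr5:128735996-128736295 (plus strand) for Piwil1, chr9:14740623-14740922 (minus) for the upstream of 2 Piwil4 starts and chr4:126429493-126429792 (minus) for Ago3.
Piwil1: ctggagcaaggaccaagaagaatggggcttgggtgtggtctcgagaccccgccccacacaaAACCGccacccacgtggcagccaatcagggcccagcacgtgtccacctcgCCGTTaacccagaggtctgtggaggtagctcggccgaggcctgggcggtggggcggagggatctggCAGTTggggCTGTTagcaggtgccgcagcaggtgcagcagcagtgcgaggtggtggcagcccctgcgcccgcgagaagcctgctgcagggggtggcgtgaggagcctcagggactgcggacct
Piwil4: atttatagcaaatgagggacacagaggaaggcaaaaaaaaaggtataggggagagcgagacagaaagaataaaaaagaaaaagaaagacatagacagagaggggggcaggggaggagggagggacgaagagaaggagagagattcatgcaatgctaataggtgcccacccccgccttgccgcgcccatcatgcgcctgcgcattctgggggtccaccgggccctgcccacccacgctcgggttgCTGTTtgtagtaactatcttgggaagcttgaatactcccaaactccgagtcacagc
Ago3: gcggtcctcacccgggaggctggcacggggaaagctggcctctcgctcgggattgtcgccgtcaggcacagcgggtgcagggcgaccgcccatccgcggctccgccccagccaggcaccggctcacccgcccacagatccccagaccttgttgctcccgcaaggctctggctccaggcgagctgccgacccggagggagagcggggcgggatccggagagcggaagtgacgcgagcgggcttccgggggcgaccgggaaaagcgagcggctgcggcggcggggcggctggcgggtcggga

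The Piwil1 window held 4 matches, AACCG from base 62, CCGTT from base 112, CAGTT from base 178 and CTGTT from base 187, counted from the 5′ end of the window. The median over 32851 promoters was 2 matches (quartiles 1 and 3), and 11.8% held at least 4. The upstream Piwil4 window held 1, CTGTT from base 245, and the Ago3 window none. The other Piwil4 window, not printed, held 3. At least 1 match was found for 4 of the 5 genes, against 82.4% of 27025 genes, so this count is near the background. The narrower AACTG was found for 2 of 5 (48.2% of all genes), Piwil1 and, in the window not printed only, Piwil4. AACGG was found for 3 of 5 (19.6% of all genes), Piwil1, Eif2c1 and Eif2c4. At Eif2c1 it was in 1 of the windows only, and at Eif2c1 and Eif2c4 it lay after the start, from bases 257 and 255. AACGG contains the letters CG, which occurred 18, 38 and 54 times in the Piwil1, Ago1 and Ago4 windows holding it. The median over all promoters was 7, and whether this accounts for the count was not tested. The GC content was 67.7% for Piwil1, 52.7% for the upstream Piwil4 window and 74.7% for Ago3, and 73.0% to 83.3% in the windows of Ago1 and Ago4, against a median of 52.7% (quartiles 45.7 and 61.7). The other Piwil4 window had 49.3%, so the windows of the 3 Argonaute genes were all richer in G and C than the 3 PIWI windows. A match is a description of letters and no binding was measured.

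Piwil1 lies on the plus strand of chromosome 5. Its RefSeq-derived model ran from 129242121 to 129261349 with 22 exons and a spliced length of 3944 nt, and the model CUFF.20750.1 from 129241779 to 129260081 with 21 exons and 3122 nt. The added model started 342 nt upstream, which lengthened exon 1 from 109 to 451 nt. At the other end it kept the 104-bp intron between exons 21 and 22 and stopped 14 nt into exon 22, which is 1282 nt long in the RefSeq-derived model. Its last exon was 266 nt, and its end lay 1268 nt before the RefSeq end. The 20 other introns were identical in both models. Both carried the code NM.

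Piwil2 and Piwil4 had their RefSeq-derived model alone. Piwil2, on the minus strand of chromosome 14 (70772287 to 70828901), had 23 exons, the most of the 7 genes, and a spliced length of 4913 nt with a last exon of 1957 nt. It carried the code NM. Piwil4, on the minus strand of chromosome 9 (14506802 to 14545177), had 19 exons, 2637 nt and a last exon of 117 nt. It was the shortest of the RefSeq-derived member models. A last exon at least that long was present in 96.2% of all genes, counting the whole of a single-exon model as its last exon. Piwil4 was also the only member without a code other than XX. No other model overlapped a PIWI gene, and none of the 3 genes had an opposite-strand start within 1000 bp.

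Eif2c2 differed from the other members in being listed also as a piRNA transcript. It lies on the minus strand of chromosome 15, where its RefSeq-derived model ran from 72932055 to 73015377 with 19 exons and a spliced length of 8031 nt. The model pi-Eif2c2.1 (72926279 to 73015616) had the same 18 introns, started 239 nt further upstream and ended 5776 nt further downstream, for 14046 nt. The model CUFF.9152.1 (72926294 to 73015502) lay within it, also with the same 18 introns: its start was 114 nt inside that of pi-Eif2c2.1 and its end 15 nt inside. The first exon was 187, 312 and 426 nt long in the RefSeq-derived, CUFF and piRNA-named models, and the last exon 5392, 11153 and 11168 nt. Thus 2 separately named models ended at nearly the same place beyond the RefSeq end. The sources used here do not say whether they were derived independently, so they are not counted as 2 observations.

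Among gene-named piRNA loci, pi-Eif2c2 was long but not extreme. Of 112 such loci that overlap a RefSeq-derived model of their gene, it ranked 15 by the distance of its end beyond the RefSeq end (median 0 nt, quartiles -3 and 3227.25), and its last exon ranked 10 against a median of 5208 nt. Its spliced length ranked 11 and its exon number 13. Counting intronless matches such as Exoc8 and Hist1h1a, 91.1% of these loci, Eif2c2 included, had a piRNA-named model with the introns of a RefSeq-derived model. The locus name is the authors', and no piRNA was counted in this table.

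The codes of the Eif2c2 models went with that name. The piRNA-named model was coded PG, and the RefSeq-derived model and both CUFF models of Eif2c2 were coded XX. The RefSeq-derived models were all coded XX at 95.5% of the 112 piRNA host genes, and at 38.1% of other genes. XX at Eif2c2 was therefore the usual code of a gene with a piRNA-named model. Piwil4 was coded XX with no such model. The models of the other 5 members were all coded NM, whether RefSeq-derived or added. A code other than XX was present for 6 of 7 members, against 62.8% of all genes. It was present for 5 of 7 when RefSeq-derived models alone were counted, a setting for which the share of all genes was not computed. What the codes mean is not stated in those sources.

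The start of Eif2c2 and its first intron held further transcripts. Intron 1, at 38195 bp the longest intron of any member's RefSeq-derived model, held 6 single-exon models without a symbol on the same strand, each 1807 to 2813 nt long and 13093 nt in all, 34.3% of the intron. At least 6 such models were found in 0.0357% of all genes (8 of 22428), and at least 1 in 2.96%. The cut of 6 is the count of Eif2c2 itself, and these shares were not matched for intron length. The gaps between the 6 models in intron 1 were 2111 to 5094 bp. Another unspliced transcript, CUFF.9152.3, bore the symbol Eif2c2: it started at 73015502, like CUFF.9152.1, and ran 3876 nt through the first exon into intron 1, ending 237 bp before the nearest of the 6. All of them were coded XX. Unspliced RNA of a long intron and separate short transcripts cannot be told apart in this table.

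**Figure D2:**
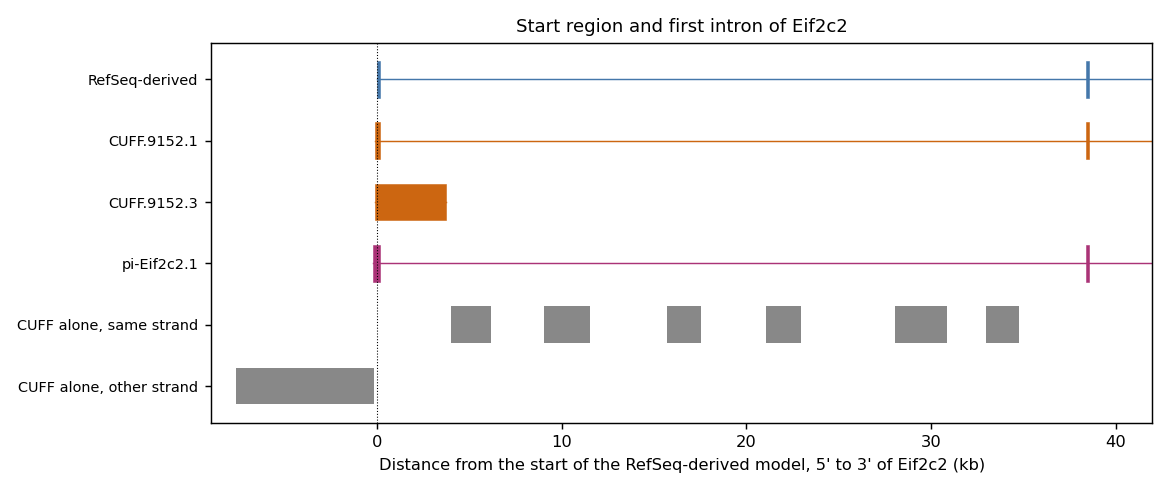
Models at the start and first intron of Eif2c2, by distance in kb from the RefSeq start along the gene (boxes are exons, lines introns). The 6 grey boxes on the gene's own strand lie within intron 1, and CUFF.9165.1 extends away from the start on the other strand.

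A transcript on the other strand started beside Eif2c2. CUFF.9165.1, a single exon of 7470 nt on the plus strand (73015570 to 73023039), started 193 bp upstream of the RefSeq start and 68 bp upstream of the CUFF starts, and lay 46 bp inside the start of pi-Eif2c2.1, so that the piRNA-named model overlapped it. Eif2c3 had a like neighbour: CUFF.18603.1, a single exon of 1663 nt (126106833 to 126108495, plus strand), started 47 bp upstream of both its models. A head-to-head partner, defined as an opposite-strand start 1 to 500 bp upstream of any start of the gene, was thus present for 2 of 7 members, against 11.3% of all genes. Measured from the outermost start only, Eif2c3 alone kept its partner. The share of all genes by that measure was not computed.

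Eif2c3, Eif2c1 and Eif2c4 lie in that order by coordinate on chromosome 4, all on the minus strand, within 200853 bp. The gap was 5470 bp between Eif2c3 and Eif2c1 and 20915 bp between Eif2c1 and Eif2c4, so Eif2c4 comes first in the direction of transcription.

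Eif2c3 was extended at its end alone. Its RefSeq-derived model (126017922 to 126106786) and CUFF.18601.1 (126009928 to 126106786) shared their start and all 18 introns. The added model ended 7994 nt further downstream, so that the last exon was 12899 nt long rather than 4905 nt and the spliced length 15629 nt rather than 7635 nt. This was the longest last exon of the 7 genes, and 0.103% of all genes had one at least as long. Its intron 6 held 2 single-exon models without a symbol on the same strand, of 1904 and 1396 nt, 65.0% of that intron's 5080 bp.

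Eif2c1 varied at its start and kept 1 end. Its 3 models all ended at 126112257 with a last exon of 4599 nt. The RefSeq-derived model started at 126145665 with a first exon of 25 nt, and CUFF.18587.2 started 206 nt further upstream, at 126145871, with 231 nt. CUFF.18587.2 also kept 1 intron, of 133 bp, the shortest of the gene. CUFF.18587.3 started inside the gene, at 126137909, 7756 nt downstream of the RefSeq start. Its first exon of 299 nt extended exon 5 of the RefSeq-derived model (137 nt) by 162 nt into the intron before it, and it lacked the 4 exons upstream.

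The added model of Eif2c4 was shorter at its end than the RefSeq-derived one. Its RefSeq-derived model (126166787 to 126210702) had 18 exons and 6521 nt, and CUFF.18593.2 (126174029 to 126210780) had 17 exons and 2774 nt. The added model started 78 nt upstream and stopped 164 nt into exon 17, which is 200 nt long, so it lacked the last exon of 3789 nt. Its end lay 7242 nt before the RefSeq end, further than that of Piwil1. The other 16 introns were the same. A true 3′ end and an incomplete assembly cannot be told apart in this table, here or at Piwil1.

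Over the 7 genes, starts and ends each varied at 4. With positions within 50 nt counted as 1, Eif2c1 and Eif2c2 had 3 starts, Piwil1 and Eif2c4 had 2 and the rest 1. Eif2c2 had 3 ends, Piwil1, Eif2c3 and Eif2c4 had 2 and the rest 1. More than 1 start was present for 26.7% of all genes and more than 1 end for 23.1%. Genes with a single model cannot vary: among genes with at least 2 models the shares were 69.2% for starts and 59.8% for ends, against 4 of 5 members for each. With starts within 200 nt counted as 1, only Piwil1 and Eif2c1 kept more than 1. The share of all genes at that distance was not computed. An added model started more than 50 nt upstream of the RefSeq start in 4 of 5 members with an added model, against 36.7% of such genes.

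Ends moved both ways among the members. Of the 5 genes with an added model, Eif2c2 and Eif2c3 had one that ended more than 1000 nt beyond the RefSeq end, against 14.6% of 6434 such genes. At Piwil1 and Eif2c4 every added model ended more than 1000 nt before it, against 20.3%. Eif2c1 ended where RefSeq does. By the furthest added end, 3.70% of such genes reached at least as far as Eif2c2 and 2.77% as far as Eif2c3, while 6.95% stopped at least as far short as Eif2c4 and 18.4% as Piwil1. The median over these genes was 0 nt (quartiles -523.75 and 88.75).

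**Figure D3:**
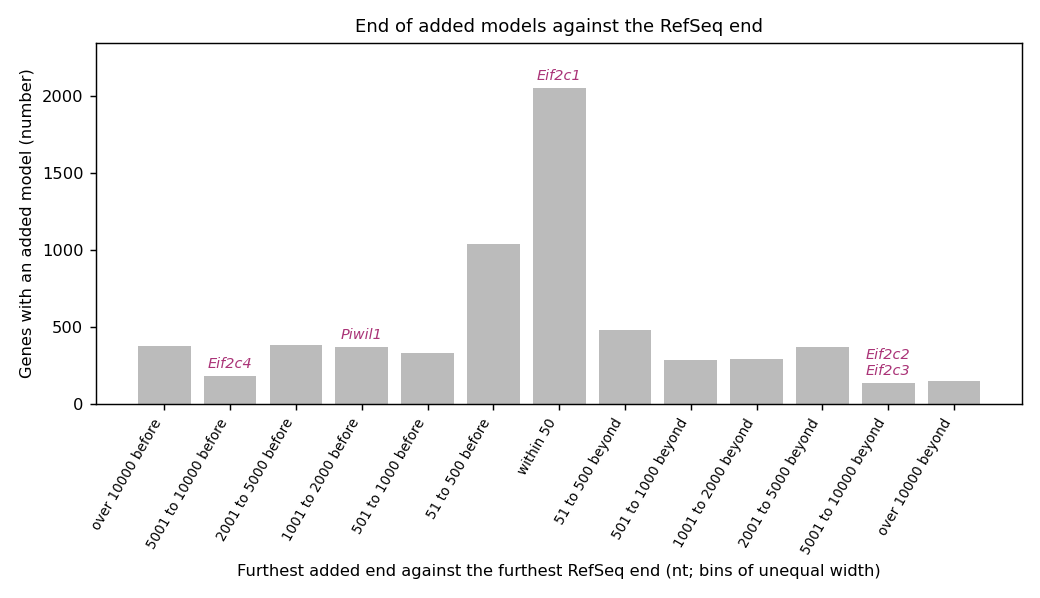
Number of genes with an added model (bars, 6434 in all) by the distance in nt from the furthest RefSeq end to the furthest added end, in bins of unequal width, with the 5 members named above their bins. Eif2c2 (5776 nt) and Eif2c3 (7994 nt) share a bin beyond the RefSeq end, Eif2c4 and Piwil1 lie before it, and Eif2c1 is in the tallest bar, at no shift.

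The last exon was longer in every Argonaute gene than in any PIWI gene. Taking the longest last exon of each gene, the Argonaute genes ranged from 3789 to 12899 nt with a median of 7883.5 nt, and the PIWI genes from 117 to 1957 nt with a median of 1282 nt. The median over all genes, single-exon models included, was 1023 nt (quartiles 504 and 2074.25). By this measure 41.7% of all genes reached Piwil1 and 27.1% reached Piwil2, against 7.80% for Eif2c4, 4.56% for Eif2c1 and 0.174% for Eif2c2. In RefSeq-derived models alone the Argonaute genes had 3789 to 5392 nt (median 4752), still above all 3 PIWI genes, so the order was already in the annotation. The added models of Piwil1 (266 nt) and Eif2c4 (164 nt) had shorter last exons than the RefSeq-derived models of the same genes. With 3 genes against 4, related by descent, no test was made.

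**Figure D4:**
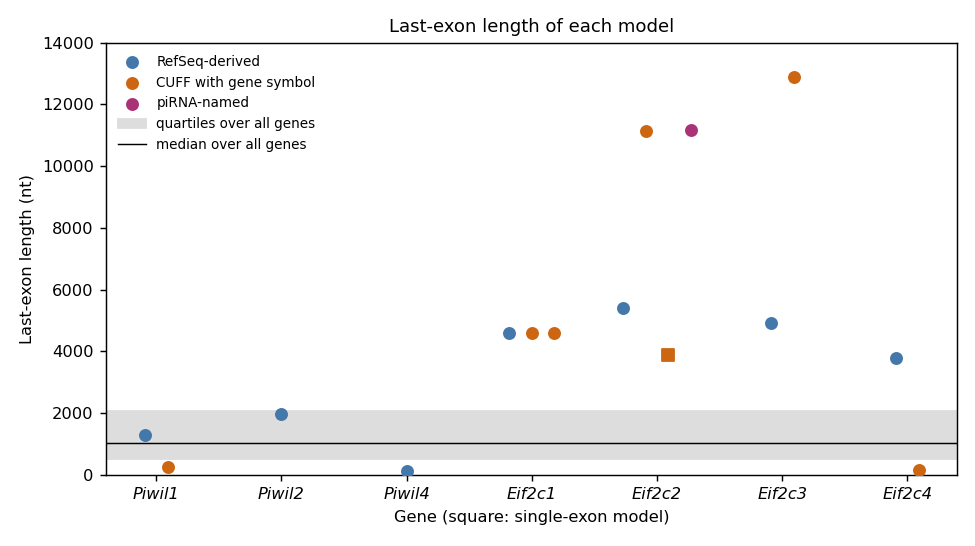
Last-exon length in nt of each of the 15 models by gene (points, coloured by kind of model; the square is a single-exon model), with the median (line) and quartiles (band) of the longest last exon over all 22428 genes. RefSeq-derived models of the 4 Argonaute genes lie at 3789 to 5392 nt and those of the PIWI genes at 117 to 1957 nt.

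The last exon also made up more of the RefSeq-derived models of the Argonaute genes. It was 58.1% of the spliced length for Eif2c4, 64.2% for Eif2c3, 65.1% for Eif2c1 and 67.1% for Eif2c2. It was 32.5% for Piwil1, 39.8% for Piwil2 and 4.44% for Piwil4. In the extended models of Eif2c3, Eif2c2 and pi-Eif2c2 it was 82.5%, 80.1% and 79.5%, and in the added models of Eif2c1 62.1% and 68.5%. The shortened models went the other way, with 5.91% in Eif2c4 and 8.52% in Piwil1, so the order of the families did not hold over all models.

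Internal exon lengths were largely shared among the Argonaute genes and between Piwil1 and Piwil4, but not by Piwil2. In order along the RefSeq-derived models, without first and last exons, Eif2c1 and Eif2c2 shared 16 of 17 lengths, and each shared 15 with Eif2c3. All 4 Argonaute genes shared 12 in the same order. Eif2c4 had an exon of 316 nt where the others have exons of 195 and 91 nt, and 129 nt in place of 123 nt, and so shared 12 or 13 of its 16. Piwil1 and Piwil4 shared 11 lengths (of 20 and 17), whereas Piwil2 shared 1 with each of them and 2 with each Argonaute gene, no more with its own family than with the other. Piwil1 and Piwil4 shared 1 with each Argonaute gene. These are properties of the annotation. They were left unchanged in the extended models CUFF.9152.1, pi-Eif2c2.1 and CUFF.18601.1, while the single-exon CUFF.9152.3 of Eif2c2 has no internal exon.

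**Figure D5:**
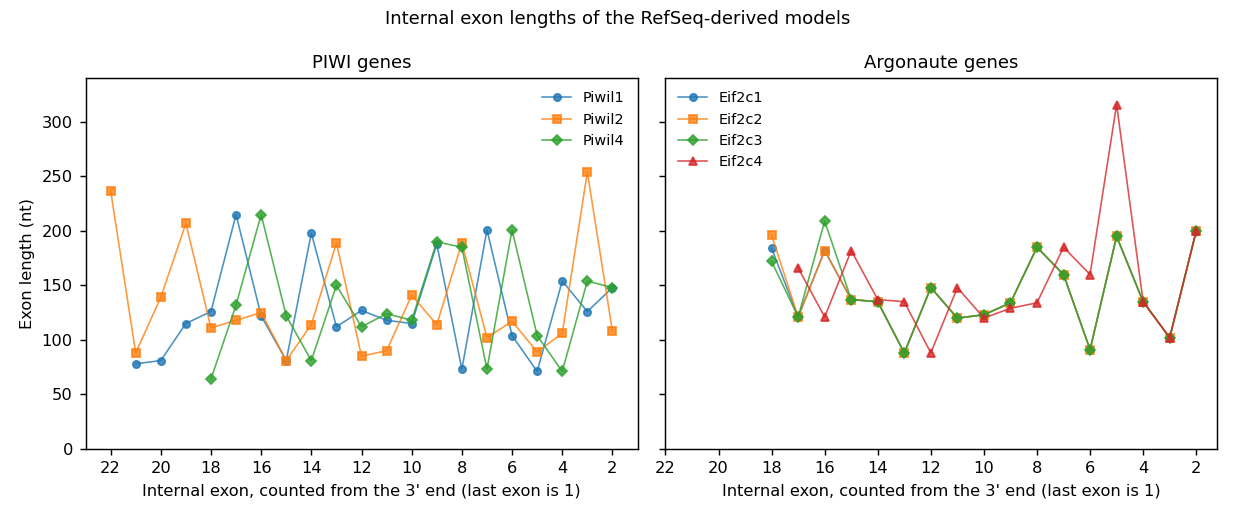
Length in nt of each internal exon of the RefSeq-derived models, counted from the 3′ end, for 3 PIWI genes (left) and 4 Argonaute genes (right). Eif2c1, Eif2c2 and Eif2c3 follow the same course over most exons, and Eif2c4 is offset by 1 position on the 5′ side of its exon of 316 nt.

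Introns filled most of each gene. They made up 78.9% of the span of the RefSeq-derived model in Eif2c1 and 79.5% in Piwil1, and 85.2% to 93.1% in the other 5. The longest intron was the first in Eif2c2 (38195 bp), the fifth in Eif2c3 (26123 bp) and number 15 in Eif2c4 (9431 bp) and Piwil1 (1938 bp). Piwil1 was the most compact gene, at 19229 bp from start to end, and Eif2c3 the most extended at 88865 bp.

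Partner genes of both families were set beside the members. Of 18 genes that act with PIWI proteins, all had a code other than XX (62.8% of all genes), 7 had more than 1 start (26.7% of all genes) and 6 more than 1 end (23.1% of all genes). Those with the most ends were Exd1 (3), which acts in a complex with Tdrd12, and, in alphabetical order among the genes with 2, Gtsf1, a PIWI cofactor, and Rnf17, a tudor-domain protein. Of 20 genes that act with Argonautes in the microRNA pathway, all again had such a code, 11 had more than 1 start and 7 more than 1 end, against the same shares of 62.8%, 26.7% and 23.1%. At least 2 models were present for 11 PIWI partners and 13 Argonaute partners, against 38.6% of all genes. Among these, starts varied in 7 of 11 and 11 of 13, against 69.2% of genes with at least 2 models. Ends varied in 6 of 11 and 7 of 13, against 59.8%, so neither list exceeded that share for ends. Cnot1, the scaffold of the deadenylase complex, Dicer1, which cuts microRNA precursors, and Tnrc6c, a GW182 protein that binds Argonaute, had 3 ends each. An added end more than 1000 nt beyond RefSeq was present for 3 of 8 PIWI partners with an added model and 3 of 10 Argonaute partners, against 14.6% of all genes with an added model. The median longest last exon was 631.5 nt for PIWI partners and 1594.5 nt for Argonaute partners, against 1023 nt over all genes. A last exon as long as the shortest among the Argonaute genes (3789 nt) was present in 7.80% of all genes. It was present in 0 of 18 PIWI partners and 5 of 20 Argonaute partners. The 5 were Dicer1 (4017 nt), Ddx6 (4243), Xrn1 (5284), Trim71 (6875) and Tnrc6b (11998), and were singled out after their values were seen. Trim71, like Eif2c2, has a piRNA-named model, and that model had the last exon of 6875 nt and ended 4051 nt beyond the RefSeq end.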

How the data were processed

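The series held CAGE libraries of testes at 10.5 dpp and in adults and an adult PAS-Seq library (1 each). The read length was 100 nt for PAS-Seq per the labels' protocols. The authors also deposited 1 table of 12 columns without a header, whose values are positions, exon numbers and exon lengths in bp. The build was mm9 and the tool named was TopHat2 2.0.4, per the submitters' processing notes. Assembly, filtering and the joining of models to CAGE and PAS-Seq reads are not stated in the sources used here. There were no counts, so depth and counting error are unknown and no test was run.

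With Python 3.11.15, starts or ends within 50 nt were counted as 1, and a head-to-head partner was an opposite-strand start 1 to 500 bp upstream. Background shares were computed over all genes with a RefSeq-derived model. The 8 gene-named piRNA models that overlapped no model of their gene on its strand were not joined to a gene. Named were all members, models overlapping them or starting within 1000 bp on the other strand, and in each partner list the members coded XX alone and the 3 with the most distinct ends, ties by alphabet. Members and lists were chosen with earlier results of these data known. Alternatives varied the merging distance, the models used, the partner window and the motif. The counting steps were tested on simulated models. Promoter windows came from RefSeq in GRCm38.p6, were matched by name, and were not placed on mm9. Promoters of Eif2c2 and Piwil2 were not used here.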

Additional observations from a re-analysis of the deposited data

How the results depend on the processing

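Of 22 alternative values of the main results, 15 stayed within 1.5 times the count or equal to the length reported. The 22 are not independent, since the last-exon medians of both families and their difference were counted separately. With RefSeq-derived models only, 0 of the 7 genes had more than 1 start and 0 more than 1 end, because each has 1 such model. The median last exon of the Argonaute genes was then 4752 nt in place of 7883.5 nt, and the excess over the PIWI median 3470 nt in place of 6601.5 nt. With starts within 200 nt merged, 2 genes had more than 1 start. With the outermost start only, 1 gene had a head-to-head partner. Shares of all genes were not computed under either setting. The motif AACTG was found for 2 of 5 genes (48.2% of all genes), and AACGG for 3 of 5 (19.6%). The AACGG count was among the 15, although AACNG was found in 82.4% of all genes. The windows holding AACGG had more CG pairs than the median promoter. The end of pi-Eif2c2 was measured against the same model under the alternative, since Eif2c2 has 1 RefSeq-derived model. No paired analysis was possible because each group had 1 library and the table holds no value per library. Depth is unknown, and the absence of an added model at Piwil2 or Piwil4 does not show that no other transcript exists.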
